A study of Homo sapiens with 6 samples.

Results

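The genes described here are 10 genes of the epithelial-mesenchymal switch, chosen by symbol out of 58336 rows of the gene tables. They are 5 transcription factor genes (ZEB1, ZEB2, SNAI1, SNAI2 and TWIST1), 3 genes that mark mesenchymal cells (CDH2, VIM and FN1) and 2 genes of the epithelial state (CDH1 and ESRP1). RNA sequencing measured their transcripts in H1299 cells stably transfected with a hairpin against CCNB1 (genotype label CCNB1 knockdown, 3 libraries) and in H1299 cells with the mock vector (genotype label WT, 3 libraries). H1299 is an established human lung cancer line, which the labels describe as lung adenocarcinoma in type and mesenchymal in form. Both groups were grown in RPMI-1640 with 10% serum, and puromycin at 1 µg/ml was used to select stable transfectants, on cells 14 days past confluence. The labels do not say how many hairpins or clones were used, nor whether each library is a culture of its own. The p-values below thus reflect variation among libraries that could be technical. The question put to these genes is whether their transcripts differ when CCNB1, the gene of cyclin B1, is knocked down.

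Epithelial cells adhere to each other through E-cadherin, the product of CDH1, and carry keratin filaments. In the mesenchymal state cells instead make N-cadherin (CDH2), the intermediate filament protein vimentin (VIM) and fibronectin (FN1), a glycoprotein of the extracellular matrix. ZEB, SNAI and TWIST proteins bind E-box sequences and are known as repressors of CDH1, and ZEB factors and the miR-200 family of microRNAs repress each other. ESRP1 is a splicing regulator that enforces epithelial isoforms of transcripts such as those of FGFR2 and CD44.

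The miR-200 family is shown first because it is the best known direct regulator of ZEB1 and ZEB2. Its members fall into 2 groups by seed, bases 2 to 8 of the mature RNA, which is in capitals in these RefSeq sequences (GRCh38.p14), written 5′ to 3′:
hsa-miR-200b-3p: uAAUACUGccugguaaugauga
hsa-miR-200c-3p: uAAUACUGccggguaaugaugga
hsa-miR-429: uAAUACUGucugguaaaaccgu
hsa-miR-200a-3p: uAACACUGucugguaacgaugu
hsa-miR-141-3p: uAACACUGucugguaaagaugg
The complement of the first seed is CAGTATT and that of the second is CAGTGTT, and both were searched on the sense strand of each gene's longest 3′ untranslated region (UTR) in the annotation. The 3′ UTR of ZEB1, 2549 bases long, held 6 matches of CAGTATT and 3 of CAGTGTT. That of ZEB2, 5370 bases long, held 5 of CAGTATT and 4 of CAGTGTT. At 9 matches each they stood at a count that 0.0455% of the 13175 tested genes searched reached. This share is not adjusted for UTR length. Per kilobase of UTR, ZEB1 held 3.53 matches and ZEB2 1.68, beside 1.79 in FN1. CAGTATT was present in 19.4% of the 13175 genes and CAGTGTT in 21.4%, so a single match was common. FN1 held 2 matches of CAGTATT, ESRP1 held 1 of each kind and SNAI2 held 1 of CAGTATT. These letters were not found in the 3′ UTRs of SNAI1, TWIST1, CDH1, CDH2 or VIM.

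Sites in ZEB1, ZEB2 and FN1 are printed with the match in capitals and 14 bases before it, from GENCODE release 29 on GRCh38, to show the letters behind these counts. In ZEB2, 8 of the 9 matches were followed by an A, and in ZEB1, 4 of 9:
ZEB1, chr10:31527619-31527640, plus strand: ttgttttatcttatCAGTATTa
ZEB1, chr10:31528493-31528514, plus strand: tgatttttacctatCAGTATTa
ZEB1, chr10:31528563-31528584, plus strand: gtcttcaaacctggCAGTATTa
ZEB1, chr10:31528783-31528804, plus strand: gagatttgatttaaCAGTGTTa
ZEB2, chr2:144389236-144389257, minus strand: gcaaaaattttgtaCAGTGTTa
ZEB2, chr2:144388989-144389010, minus strand: gcactacaatgcatCAGTATTa
ZEB2, chr2:144388631-144388652, minus strand: tgaagcacccatgtCAGTATTa
ZEB2, chr2:144388546-144388567, minus strand: ttcattaattttgtCAGTATTa
FN1, chr2:215361303-215361324, minus strand: tattcaataccgctCAGTATTt
FN1, chr2:215361017-215361038, minus strand: ttatcaatttttccCAGTATTt
A match is a description of the letters and not a shown site of action. The rows of MIR200A, MIR200B, MIR200C, MIR429, MIR141 and the host gene MIR200CHG held 0 counts in all 6 libraries, which allows up to 3 counts per library. Libraries of this kind are not made for mature microRNAs, so the level of the mature forms was not measured.

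**Figure D1:**
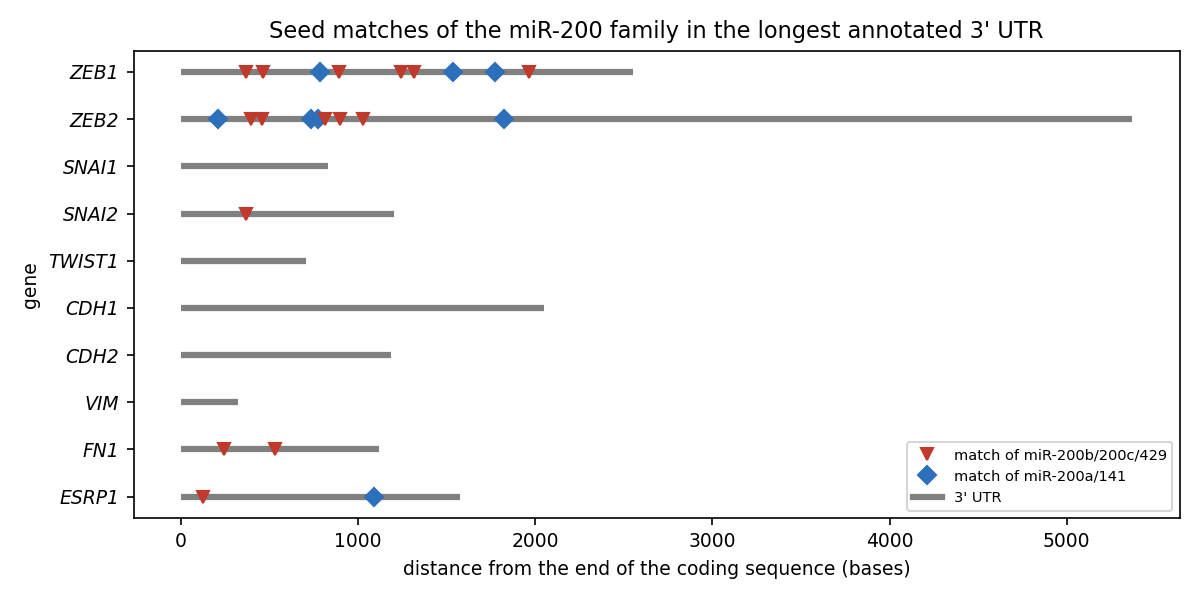
Position of each miR-200 family seed match along the longest annotated 3′ UTR of the 10 genes, in bases from the end of the coding sequence; grey bars are the UTRs, triangles CAGTATT and diamonds CAGTGTT. ZEB1 and ZEB2 hold 9 matches each, and 5 genes hold none.

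The target of the hairpin was low in every knockdown library. CCNB1 was at 19.9, 29.9 and 16.1 CPM (counts scaled by library size) in knockdown libraries 1, 2 and 3, against 323, 305 and 294 CPM in mock libraries, a log2 fold change of -3.81 (SE 0.22, adjusted p = 0.000215 in edgeR's quasi-likelihood test). Totals per library lay between 28122665 and 30332989 counts, so that 3 counts correspond to 0.094 to 0.106 CPM on the scale used here. Knockdown library 2 stood apart: the chi-square of its counts per degree of freedom was 83.6 against knockdown library 1 and 75.6 against library 3, while libraries 1 and 3 gave 27.4 with each other and mock pairs 14.2 to 30.7. The switch genes tested are therefore given with all 6 libraries and without knockdown library 2, as are the list medians, and several list genes. Library 2 was singled out because it stood apart, so leaving it out narrows the spread of the knockdown group. The p-values without it are thus likely too small. Leaving out knockdown library 1 or 3 instead gave 1 gene past the threshold each in edgeR. Markers of other cell types were low: PTPRC, CD3E and MS4A1 were at 0, and the summed level of 8 immune markers was 0.883 to 1.19 CPM in knockdown and 0.671 to 1.04 CPM in mock libraries. The 9 fibroblast markers summed to 2.12 to 4.21 CPM in knockdown and 1.94 to 2.29 CPM in mock libraries, and the 6 endothelial ones to 2.32 to 3.07 CPM in knockdown and 2.11 to 2.85 CPM in mock libraries; their part in the results was not tested. Of 10 markers of lung adenocarcinoma, SFTPA1, SFTPA2 and CEACAM6 were at 0 and NKX2-1, the lineage factor of that tumour, had 7 to 11 counts in knockdown and 5 to 13 counts in mock libraries. KRT7 and MUC1, which are on the same list but not particular to lung, had 67 to 106 and 97 to 130 counts in knockdown libraries, against 49 to 51 and 95 to 129 counts in mock libraries.

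Compared per length, as FPKM from the authors' table, VIM and CDH2 stood at the top of the 10 and CDH1 at the bottom in both groups. VIM led by far, at 454 ± 166 FPKM in knockdown and 610.4 ± 26.8 FPKM in mock libraries (SD, n = 3 each), place 79 and place 47 of all rows. CDH2 followed with 10.5 ± 0.480 and 9.71 ± 0.276 FPKM in knockdown and mock libraries, then ZEB1 with 7.59 ± 1.16 and 8.45 ± 0.554 FPKM. TWIST1 and FN1 could not be placed apart, since their ranges overlapped: TWIST1 spanned 3.41 to 3.87 FPKM and FN1 2.22 to 4.48 FPKM in knockdown libraries, against 3.68 to 4.05 and 2.79 to 4.10 FPKM in mock libraries. ZEB2 stood next, at 2.03 ± 0.150 FPKM in knockdown and 2.03 ± 0.207 FPKM in mock libraries.

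The lower end of that order held the SNAI genes and the epithelial genes. SNAI1 and SNAI2 overlapped in knockdown libraries, at 0.230 to 0.528 and 0.358 to 0.370 FPKM, whereas in mock libraries SNAI2, at 0.436 to 0.716 FPKM, lay above SNAI1, at 0.281 to 0.361 FPKM. The FPKM of SNAI2 rest on a gene length of 2485 bases in the authors' table, against 3392 bases in GENCODE release 29. At the longer length SNAI2 would be lower and would overlap SNAI1 in mock libraries, so their order there depends on the length used. ESRP1 was at 0.180 ± 0.0515 FPKM in knockdown and 0.238 ± 0.0415 FPKM in mock libraries. CDH1 came last, at 0 to 0.0107 FPKM in knockdown and 0 to 0.00548 FPKM in mock libraries. All other neighbours by group mean had ranges over libraries that did not overlap. In knockdown libraries ESRP1, at 0.149 to 0.239 FPKM, lay below SNAI2 but overlapped SNAI1.

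**Figure D2:**
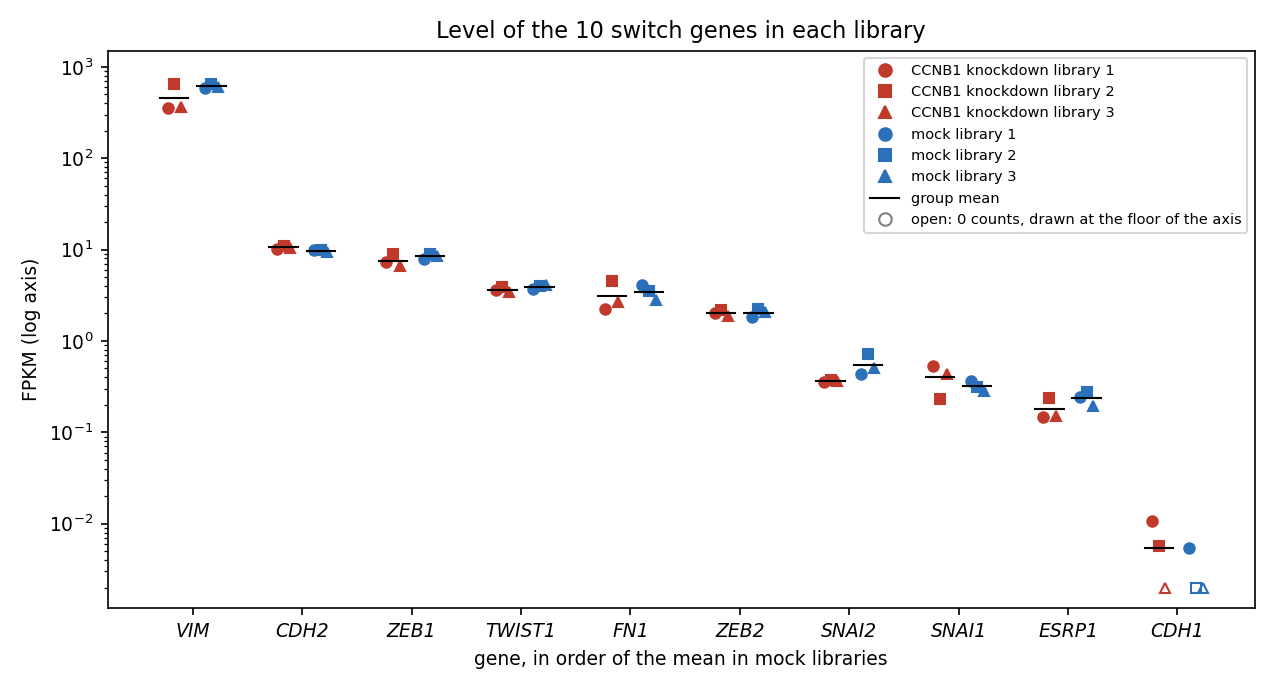
FPKM (log axis) of each gene in each library, knockdown left of mock within a gene, with shapes for library numbers and lines for group means; open symbols stand for 0 counts. VIM is at 355 FPKM or more, CDH1 is at or near 0 in both groups, and the groups lie close together within most genes.

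No switch gene passed the threshold, an adjusted p of 0.05 over all genes tested, when all 6 libraries were used. Of the 10 genes, 9 entered the test and 0 passed, against 4 of all 17349 genes tested, or 0.0231%, all 4 of them lower. CDH1 was the gene that did not enter, for low counts. Of the 9, 7 had a lower and 2 a higher fitted level in knockdown libraries, with a median log2 fold change of -0.20, beside 0.02 over all genes tested. At an unadjusted p under 0.05 there was 1 gene, SNAI2, against 15.0% of all genes. DESeq2 also called 0 of the 9, against 3.45% of the genes it tested, with VIM at an unadjusted p under 0.05. In bulk RNA, a lower level in every cell and a smaller share of cells with a high level cannot be told apart.

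**Figure D3:**
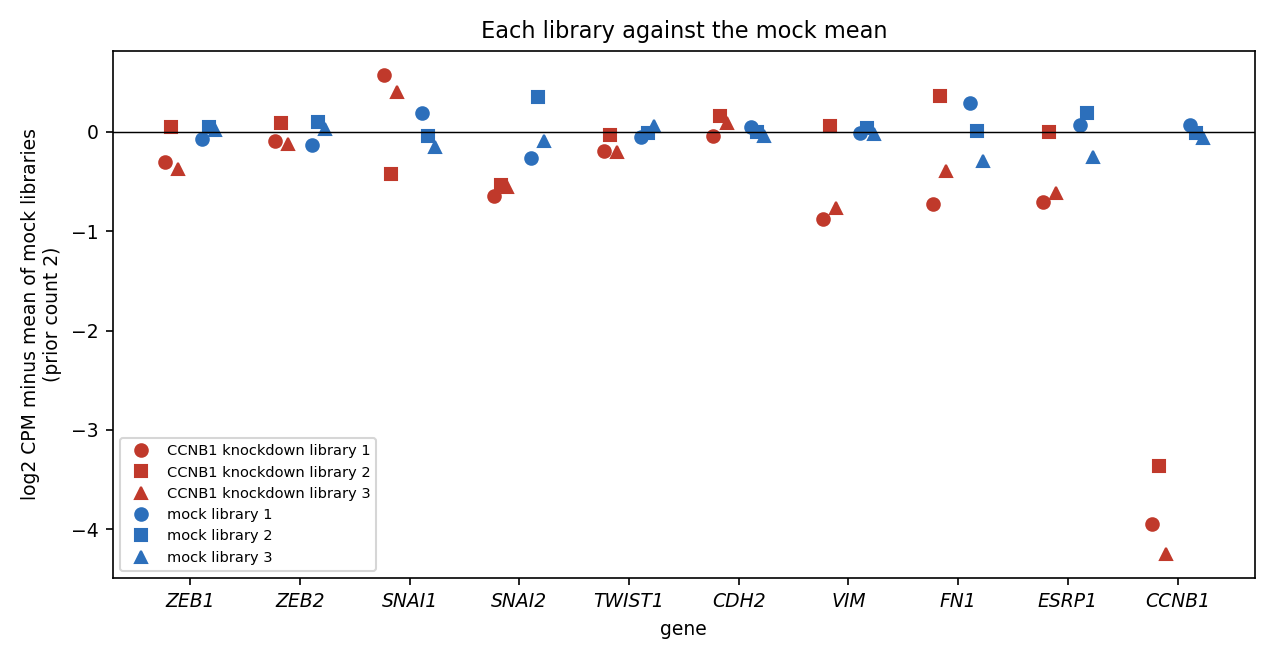
Log2 CPM of each library minus the mean of the mock libraries (prior count 2) for the 9 genes tested and for CCNB1, knockdown left of mock within a gene. Knockdown libraries 1 and 3 (circle and triangle) lie below all mock libraries for ZEB1, TWIST1, VIM, FN1 and ESRP1, while library 2 (square) does not.

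VIM, which encodes vimentin, passed the threshold in edgeR once knockdown library 2 was left out, and not with all 6 libraries. It was at 1741, 3331 and 1878 CPM in knockdown libraries 1, 2 and 3, against 3181, 3283 and 3145 CPM in mock libraries. Levels were at 54.4% and 58.6% of the mock mean in knockdown libraries 1 and 3 and at 104% in library 2, so the groups overlapped through that library alone. The group means were 2317 ± 881 and 3203 ± 71.5 CPM in knockdown and mock libraries (SD, n = 3 each). With all 6 libraries the log2 fold change was -0.47 (SE 0.22, 95% interval -0.97 to 0.03, adjusted p = 0.358 in edgeR). Without knockdown library 2 VIM was the 1 switch gene of 9 that passed, where 13.8% of all genes did. It then fell 1.77-fold (log2 fold change -0.83, SE 0.10, 95% interval -1.06 to -0.60, adjusted p = 0.00135 in edgeR). In that reduced comparison 4 of the 9 had an unadjusted p under 0.05, against 30.6% of all genes. With all 6 libraries but no filter on low counts VIM passed as well (adjusted p = 0.0375 in edgeR), as 3.12% of genes did. DESeq2 with all 6 libraries gave VIM an adjusted p of 0.237. VIM lies on chromosome 10 from 17228259 to 17237593, plus strand, and 641 of its exon bases, 12.4%, are shared with VIM-AS1 on the other strand. No source used here says whether reads were counted by strand, so the reads of such pairs cannot be told apart. VIM-AS1 held 83 to 122 counts in knockdown and 117 to 149 counts in mock libraries, beside at least 55573 counts of VIM in each library.

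FN1, the gene of fibronectin, was at 36.5, 77.6 and 46.0 CPM in knockdown libraries, against 73.8, 60.6 and 49.4 CPM in mock libraries. Knockdown library 2 was the highest of all 6 and library 1 the lowest, and the mock libraries spread as well. The log2 fold change was -0.20 (SE 0.26, 95% interval -0.78 to 0.38, adjusted p = 0.748 in edgeR). Without knockdown library 2 it was -0.57 (SE 0.18, adjusted p = 0.0594 in edgeR), short of the threshold, while DESeq2 without that library passed it (log2 fold change -0.60, adjusted p = 0.00785). FN1 lies on chromosome 2 from 215360440 to 215436172, minus strand.

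CDH2, the gene of N-cadherin, did not pass the threshold. It was at 47.5, 54.7 and 52.1 CPM in knockdown libraries, against 50.4, 48.8 and 47.6 CPM in mock libraries, and on this TMM scale the groups overlapped. In FPKM, scaled by library total alone, all 3 knockdown libraries were above mock, at 10.1, 11.04 and 10.5 FPKM in knockdown libraries, against 9.79, 9.94 and 9.40 FPKM in mock libraries. How many of all genes were apart in this way in FPKM was not counted. On the TMM scale, where CDH2 overlapped, 10.9% of all genes tested had all 3 knockdown libraries above all mock libraries. The log2 fold change was 0.07 (SE 0.12, adjusted p = 0.811 in edgeR) with a 95% interval of -0.19 to 0.34. Without knockdown library 2 the log2 fold change was 0.02 (SE 0.11) and in DESeq2 without that library its sign turned, at -0.00016. CDH2 lies on chromosome 18 from 27950966 to 28177446, minus strand, and shares 136 exon bases with AC110015.1 on the other strand, which had 10 to 11 counts in knockdown and 2 to 4 counts in mock libraries.

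E-cadherin transcripts were almost undetected in both groups, and no difference was detectable at this depth. CDH1 had 2, 1 and 0 counts in knockdown libraries, against 1, 0 and 0 counts in mock libraries, all at or under the floor of 3 counts, so no fold is given. CDH1 lies on chromosome 16 from 68737225 to 68835548, plus strand. Per length and over the pooled libraries, CDH2 exceeded CDH1 by 1918 times in knockdown libraries (95% exact binomial interval 656 to 9306, from 3 counts of CDH1). In mock libraries CDH2 exceeded CDH1 by 5227 times (938 to 206500, from 1 count). These intervals cover counting error only, and they overlap.

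The log2 ratio of CDH2 to CDH1 per library, a measure of the cadherin switch, was 8.503, 9.05 and 9.58 in knockdown libraries, against 8.93, 9.48 and 9.45 in mock libraries (prior count 2). The difference of -0.24 was within the spread, with p = 0.7 in a two-sided exact permutation test whose smallest possible p with 3 against 3 libraries is 0.1. The prior count of 2 is about as large as or larger than every count of CDH1, so it largely sets the size of these ratios. The test could therefore say little about a change in CDH1. The sign of the difference rests on 0 to 2 counts of CDH1 and turned with FPKM values, at 0.0667 with a pseudocount of 0.1. That pseudocount is well above the FPKM of CDH1, so the value follows mainly CDH2.

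Neither ZEB gene passed with all 6 libraries. ZEB1, a zinc-finger repressor of CDH1, was at 60.2, 76.6 and 57.2 CPM in knockdown libraries, against 70.7, 77.0 and 75.3 CPM in mock libraries. Knockdown libraries 1 and 3 were below all mock libraries, at 80.9% and 77.0% of the mock mean, and library 2 was among them. Its log2 fold change was -0.20 (SE 0.14, 95% interval -0.51 to 0.11, adjusted p = 0.529 in edgeR), and -0.34 (SE 0.10, adjusted p = 0.0571 in edgeR) without knockdown library 2. DESeq2 without that library passed the threshold (log2 fold change -0.37, adjusted p = 0.0259). ZEB1 lies on chromosome 10 from 31318495 to 31529814, plus strand.

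ZEB2, its paralog, was at 48.5, 54.7 and 47.3 CPM in knockdown libraries, against 47.2, 55.3 and 52.7 CPM in mock libraries. The groups lay within one range. The log2 fold change was -0.04 (SE 0.13, 95% interval -0.33 to 0.24, adjusted p = 0.899 in edgeR), and its sign turned without mock library 2, at 0.00303. Without knockdown library 2 it was -0.11 (SE 0.11). The difference between the changes of ZEB1 and ZEB2 was not tested. ZEB2 lies on chromosome 2 from 144364364 to 144524583, minus strand. Of the antisense genes of this pair, ZEB1-AS1 was at 6.33, 6.57 and 5.25 CPM in knockdown libraries, against 8.34, 7.98 and 9.07 CPM in mock libraries, below mock in all 3 but not past the threshold (log2 fold change -0.48, SE 0.16, adjusted p = 0.217 in edgeR). It shares 366 exon bases with ZEB1.

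SNAI2, which encodes the repressor Slug, was the only switch gene whose knockdown libraries all lay below all mock libraries. It had 27, 26 and 27 counts in knockdown libraries, against 32, 50 and 37 counts in mock libraries, or 0.846, 0.919 and 0.908 CPM against 1.13, 1.76 and 1.28 CPM. Groups apart in that direction were seen in 8.84% of all genes tested. The log2 fold change was -0.64 (SE 0.28, 95% interval -1.27 to -0.01, unadjusted p = 0.0476 and adjusted p = 0.329 in edgeR), and it was similar without knockdown library 2, at -0.66 (SE 0.31, adjusted p = 0.182 in edgeR). At 26 to 50 counts per library this gene is measured with little precision.

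SNAI1, which encodes Snail, had 27, 11 and 22 counts in knockdown libraries, against 18, 15 and 14 counts in mock libraries. Knockdown libraries 1 and 3 were above all mock libraries and library 2 was below them all. The fit gave a log2 fold change of 0.27 (SE 0.38, 95% interval -0.58 to 1.11, adjusted p = 0.773 in edgeR), and 0.53 (SE 0.35) without knockdown library 2. The gene lies on chromosome 20 from 49982999 to 49988886, plus strand.

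TWIST1, the gene of a basic helix-loop-helix factor, was at 7.05, 7.88 and 6.96 CPM in knockdown libraries, against 7.78, 7.98 and 8.41 CPM in mock libraries. Knockdown libraries 1 and 3 were again the lowest. Its log2 fold change was -0.14 (SE 0.15, 95% interval -0.48 to 0.19, adjusted p = 0.682 in edgeR), and -0.20 (SE 0.14) without knockdown library 2. TWIST1 lies on chromosome 7 from 19020991 to 19117672, minus strand.

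ESRP1, the epithelial splicing regulator, had 22, 33 and 22 counts in knockdown libraries, against 35, 38 and 28 counts in mock libraries. Knockdown libraries 1 and 3 were below all mock libraries and library 2 was not. Its log2 fold change was -0.45 (SE 0.31, 95% interval -1.15 to 0.25, adjusted p = 0.527 in edgeR), and -0.72 (SE 0.31, adjusted p = 0.153 in edgeR) without knockdown library 2. The pattern of knockdown libraries 1 and 3 below every mock library with library 2 not below them was thus seen in 5 of the 9 genes tested (ZEB1, TWIST1, VIM, FN1 and ESRP1), and in 13.2% of all genes tested. What sets knockdown library 2 apart was not tested.

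**Figure D4:**
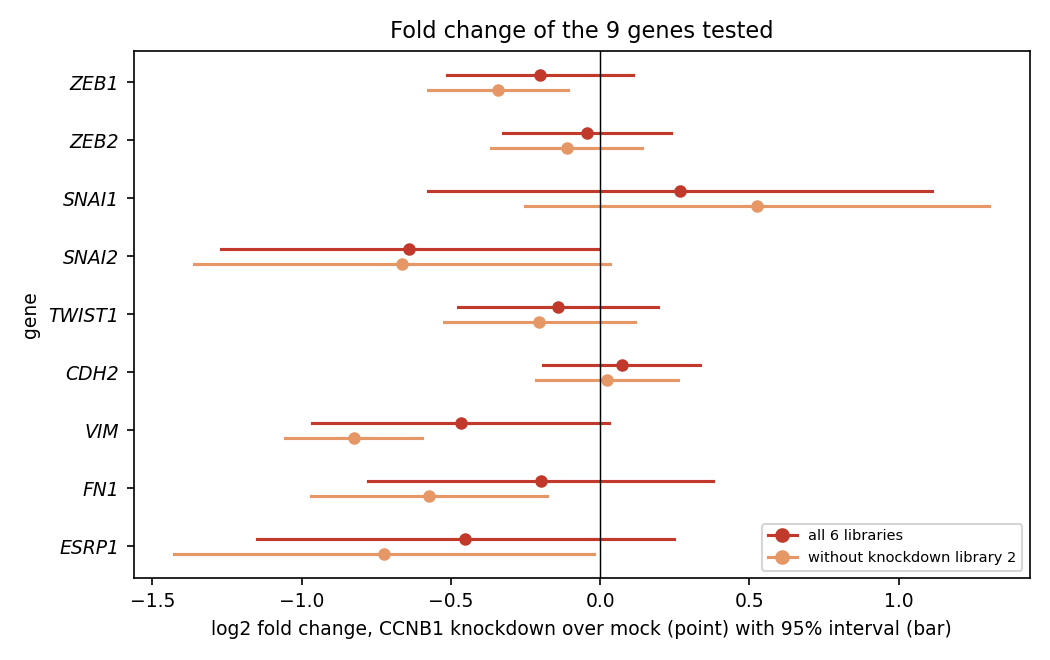
Log2 fold change of knockdown over mock with its 95% interval for the 9 genes tested, with all 6 libraries (dark) and without knockdown library 2 (light). The interval of VIM includes 0 with all 6 libraries (-0.97 to 0.03) and lies below it without that library (-1.06 to -0.60), and those of ZEB2 and CDH2 span 0 both ways.

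Genes around the switch were described by 12 lists of factors, partners and markers. Over these lists and 4 marker lists, 219 genes, 158 were tested and 0 passed in edgeR with all 6 libraries, beside 34 at an unadjusted p under 0.05. Over all genes tested, 6.88% were lower and 8.14% higher at that level. All 3 knockdown libraries were above all mock libraries in 10.9% of all genes tested and below them in 8.84%. Most genes named below were picked from their list for the smallest p in this same comparison. Groups that lie apart among them are thus partly a product of that choice and are no added support. When knockdown library 2 was left out, 37 of 160 list genes passed. Below, list genes said to rise or fall without it are those that passed in that fit. The shares over all genes without that library were 7.58% lower and 6.24% higher, and the counts below are read against those. DESeq2 with all 6 libraries called 10 of 151 list genes, or 6.62%, where it called 3.45% of all genes it tested. KRT8, KRT18, AP1M2 and CALD1 were higher by it, and TGFBR1, ITGB1, ITGA4, SDC4, SOX9 and PRRX1 lower. With the replicate number as a block edgeR called 4 of the list genes, namely KRT8, TGFBR1, ITGB1 and SOX9, and 162 of all 17349 genes tested. Same-numbered libraries were not taken as pairs, so that fit is only an alternative setting.

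Of 20 other factors tied to the mesenchymal switch, 15 were tested, 12 with a lower fitted level, and the median log2 fold change was -0.18 with all 6 libraries and -0.26 without knockdown library 2. At an unadjusted p under 0.05, 4 were lower and 0 higher. SOX9, a factor of progenitor cells, was at 46.5, 91.3 and 44.6 CPM in knockdown libraries, against 108, 117 and 122 CPM in mock libraries, all 3 below mock (log2 fold change -0.93, SE 0.25, adjusted p = 0.149 in edgeR and 0.00584 in DESeq2). PRRX1, a homeobox gene of mesenchyme, was at 10.8, 16.2 and 9.32 CPM in knockdown libraries, against 17.9, 20.7 and 20.1 CPM in mock libraries (log2 fold change -0.69, SE 0.20, adjusted p = 0.168 in edgeR and 0.0299 in DESeq2). HMGA2, a chromatin protein gene, showed the shape of VIM, with 662, 1406 and 713 CPM in knockdown libraries, against 1357, 1520 and 1493 CPM in mock libraries. These 3 fell when knockdown library 2 was left out, by 1.35, 0.96 and 1.09 on the log2 scale, and no other factor of the list passed. FOXC1, a forkhead factor, had a log2 fold change of -0.50 (SE 0.20, adjusted p = 0.289) and overlapped.

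TGF-beta is a main inducer of the switch. Of 12 of its ligand, receptor and signalling genes tested, 10 had a lower fitted level, and 0 passed in edgeR with all 6 libraries, with 2 lower and 0 higher at an unadjusted p under 0.05. Their median log2 fold change was -0.21, and -0.37 without knockdown library 2. TGFBR1, the type I receptor, was at 26.0, 52.3 and 23.3 CPM in knockdown libraries, against 59.9, 71.5 and 69.1 CPM in mock libraries (log2 fold change -0.98, SE 0.27, adjusted p = 0.157 in edgeR and 0.00682 in DESeq2). TGFBR2, the type II receptor, was at 69.3, 109.8 and 71.6 CPM in knockdown libraries, against 122.9, 123.0 and 113.6 CPM in mock libraries (log2 fold change -0.52, SE 0.18, adjusted p = 0.226). Both receptors, which were named for their small p, were lower than mock in all 3 knockdown libraries. TGFB1, the ligand, overlapped (log2 fold change -0.41, SE 0.22), and SKI, an inhibitor of SMAD signalling, had a log2 fold change of -0.23 (SE 0.12). When knockdown library 2 was left out, 4 of the 12 passed with a lower level (TGFBR1, TGFBR2, SMAD3 and SMAD7) and 0 with a higher one. TGFBR1 fell by 1.44 and TGFBR2 by 0.77 on the log2 scale.

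The proteins that ZEB and SNAI factors recruit to repress their targets, and those that control the stability of these factors, had 0 genes past the threshold with all 6 libraries in edgeR or DESeq2. At an unadjusted p under 0.05 in edgeR, the corepressors had 1 higher gene, and the stability regulators 1 higher and 1 lower. Of 16 corepressor genes, all tested, the median log2 fold change was -0.07, and -0.08 without knockdown library 2. AJUBA, a LIM protein that binds Snail, was at 80.7, 48.5 and 86.2 CPM in knockdown libraries, against 53.7, 48.1 and 50.9 CPM in mock libraries (log2 fold change 0.50, SE 0.20, adjusted p = 0.283 in edgeR). EZH2 and HDAC1, of histone methylation and deacetylation complexes, had log2 fold changes of -0.23 and -0.18. AJUBA and PRMT5 passed with a higher level without knockdown library 2, and 0 passed with a lower one. Of 17 stability regulators, all tested, the median was -0.12, and -0.21 without knockdown library 2. FBXW7, a ubiquitin ligase subunit, was at 24.7, 16.0 and 24.2 CPM in knockdown libraries, against 13.6, 15.6 and 15.1 CPM in mock libraries (log2 fold change 0.55, SE 0.18, adjusted p = 0.208). FBXL14, a ligase subunit that targets Snail, Slug and Twist, had a log2 fold change of -0.46 (SE 0.17). GSK3B, the kinase that marks Snail for degradation, and ATM, a kinase that stabilises ZEB1, had log2 fold changes of -0.30 and -0.38. FBXW7 rose without knockdown library 2, and GSK3B and ATM fell.

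Fibronectin is bound by integrins and syndecans. Of 13 receptor and matrix partner genes tested, 11 had a lower fitted level, and the list median was -0.31 on the log2 scale, or -0.47 without knockdown library 2. At an unadjusted p under 0.05, 5 were lower and 1 higher. ITGB1, the beta subunit shared by most fibronectin receptors, was at 578, 1036 and 577 CPM in knockdown libraries, against 1383, 1453 and 1397 CPM in mock libraries (log2 fold change -0.95, SE 0.22, adjusted p = 0.118 in edgeR and 0.000822 in DESeq2). ITGA4, an alpha subunit, was at 25.9, 23.8 and 26.8 CPM in knockdown libraries, against 39.8, 42.7 and 38.2 CPM in mock libraries (log2 fold change -0.66, SE 0.12, adjusted p = 0.0959 in edgeR and 0.000776 in DESeq2). Both were below mock in all 3 knockdown libraries, and ITGA4 was as low in library 2 as in the others. SDC4, a syndecan that binds fibronectin, had a log2 fold change of -0.74 (SE 0.19, adjusted p = 0.128 in edgeR and 0.00546 in DESeq2), and TGM2, a transglutaminase that crosslinks it, one of 0.52 (SE 0.17, adjusted p = 0.211). In the fit without knockdown library 2, 7 of the 13 passed with a lower level and 1 with a higher one, and ITGB1 had a log2 fold change of -1.29.

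Vimentin and N-cadherin work with other filaments, linkers and catenins. Of 9 intermediate filament and linker genes tested, 7 had a lower fitted level (median log2 fold change -0.15, or -0.17 without knockdown library 2). INA, a neuronal filament gene, was at 111, 99.7 and 127.7 CPM in knockdown libraries, against 76.8, 79.2 and 92.0 CPM in mock libraries, higher in all 3 (log2 fold change 0.45, SE 0.14, adjusted p = 0.184 in edgeR). LMNB1, PLEC and LMNA, of the nuclear lamina and of filament crosslinks, had log2 fold changes of -0.26, -0.37 and -0.15. INA alone of this list passed without knockdown library 2, and it rose. Of 9 cadherin and catenin genes tested the median log2 fold change was -0.04, or -0.20 without knockdown library 2, and 0 passed in edgeR either way, nor at an unadjusted p under 0.05 or in DESeq2 with all 6 libraries. VCL, CTNND1 and AFDN, which link cadherins to actin or hold them at the membrane, had log2 fold changes of -0.14, -0.13 and -0.05. JUP, plakoglobin, had one of 0.12 with all 6 libraries and -0.08 without knockdown library 2.

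Among epithelial genes, 0 passed in edgeR with all 6 libraries, while DESeq2 called 3, all of them markers. Of 14 epithelial transcription factor genes, 5 were tested, and GRHL2 and ELF5 were at 0 counts. The median log2 fold change of these 5 turned in sign, at -0.12 with all 6 libraries and 0.08 without knockdown library 2. KLF4 was at 25.1, 65.8 and 28.9 CPM in knockdown libraries, against 44.5, 42.3 and 47.4 CPM in mock libraries, so that library 2 lay above and libraries 1 and 3 below mock. KLF5 had a log2 fold change of -0.12 (SE 0.14). GRHL1 rose and KLF4 fell once knockdown library 2 was left out.

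Of 30 epithelial markers, 19 were tested, 14 with a higher and 5 with a lower fitted level, and the median log2 fold change was 0.19 with all 6 libraries and 0.08 without knockdown library 2. At an unadjusted p under 0.05, 5 were higher and 1 lower. KRT8, a keratin of simple epithelia, was at 793.5, 456 and 931 CPM in knockdown libraries, against 356, 309 and 343 CPM in mock libraries (log2 fold change 1.11, SE 0.23, adjusted p = 0.105 in edgeR and 0.00047 in DESeq2). Its partner KRT18 was at 596, 379 and 715 CPM in knockdown libraries, against 329, 293 and 292 CPM in mock libraries (log2 fold change 0.89, SE 0.21, adjusted p = 0.118 in edgeR and 0.00571 in DESeq2). Both were above mock in all 3 knockdown libraries. KRT19, another keratin on the list, named after its values were seen, ran the other way, with 2, 9 and 7 counts in knockdown libraries, against 15, 19 and 14 counts in mock libraries (log2 fold change -1.46, SE 0.51, adjusted p = 0.231 in edgeR). AP1M2, an adaptor subunit of epithelial sorting, was at 30.4, 11.6 and 27.3 CPM in knockdown libraries, against 11.7, 10.3 and 10.6 CPM in mock libraries (log2 fold change 1.10, SE 0.30, adjusted p = 0.155 in edgeR and 0.0133 in DESeq2). CLDN4, a tight junction claudin, had a log2 fold change of 0.59 (SE 0.18, adjusted p = 0.180). Of the 19, 4 passed with a higher level without knockdown library 2 (KRT7, KRT8, KRT18 and AP1M2), and 0 passed with a lower one. KRT19 was lower in that fit but did not pass (log2 fold change -1.91, SE 0.58, adjusted p = 0.0587 in edgeR).

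Mesenchymal markers other than the members had fitted levels on both sides of mock. Of 23 tested, 13 had a higher and 10 a lower fitted level, and the list median was 0.04 on the log2 scale, or 0.16 without knockdown library 2. At an unadjusted p under 0.05, 9 were higher and 0 lower. CALD1, an actin-binding protein gene, was at 70.2, 27.1 and 53.1 CPM in knockdown libraries, against 22.8, 29.7 and 27.1 CPM in mock libraries (log2 fold change 0.92, SE 0.29, adjusted p = 0.188 in edgeR and 0.0414 in DESeq2). TAGLN, transgelin, was at 8.43, 12.7 and 9.22 CPM in knockdown libraries, against 5.74, 6.95 and 6.51 CPM in mock libraries (log2 fold change 0.66, SE 0.19, adjusted p = 0.167). Transgelin was thus above mock in all 3 knockdown libraries, opposite in sign to VIM. TPM1, a tropomyosin gene, had a log2 fold change of 0.29 (SE 0.11). Of this list 4 rose and 5 fell without knockdown library 2.

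Around ESRP1, the splicing regulators showed no shared direction, with 5 higher and 5 lower of 10 tested and a median log2 fold change of -0.0035, or -0.06 without knockdown library 2. MBNL2, PTBP1, MBNL1 and CELF1 had log2 fold changes of 0.21, -0.14, -0.07 and -0.05, and 0 of the list passed in edgeR either way or in DESeq2 with all 6 libraries, beside 1 higher at an unadjusted p under 0.05. ESRP2, the paralog of ESRP1, was named after its values were seen: it had 26, 16 and 17 counts in knockdown libraries, against 9, 1 and 3 counts in mock libraries (log2 fold change 2.07, SE 0.58, adjusted p = 0.159 in edgeR). Of 7 tested genes whose transcripts ESRP proteins splice, 6 had a lower fitted level (median log2 fold change -0.13, or -0.23 without knockdown library 2). CD44 was at 425, 809 and 483 CPM in knockdown libraries, against 755, 717 and 666 CPM in mock libraries, again the shape of VIM (log2 fold change -0.32, SE 0.22, adjusted p = 0.524). NUMB and ENAH had log2 fold changes of -0.26 and -0.17, and without knockdown library 2 CD44 and NUMB fell. Counts per gene do not show which isoforms were made.

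**Figure D5:**
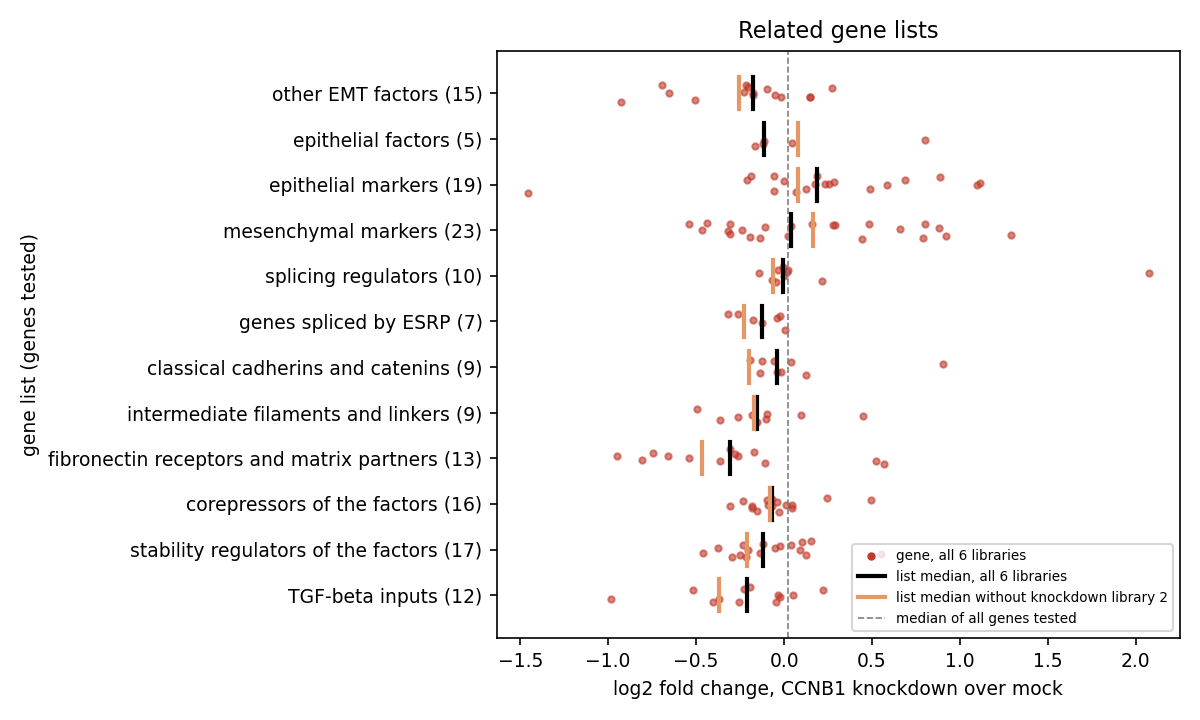
Log2 fold change of knockdown over mock for each tested gene (points) of the 12 lists, with list medians with all 6 libraries (black) and without knockdown library 2 (orange), and the median of all genes tested (dashed). With all 6 libraries the list of fibronectin receptors and matrix partners has the lowest median, -0.31, and epithelial markers the highest, 0.19; without knockdown library 2 the fibronectin list is again lowest, at -0.47, and mesenchymal markers are highest, at 0.16.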

How the data were processed

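The authors deposited raw read counts per gene and FPKM values, the second equal to counts over gene length and library total. Tools named in the submitters' processing notes are HISAT2 2.1.0, featureCounts 2.0.3, bcl2fastq 2.20 and DESeq2, with GRCh38.p13 as build; annotation release, strand and multiple mapping are not given in the sources used here. Titles gave groups and replicate numbers, and 0 columns belonged to other samples.

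In R 4.3.3, edgeR 4.0.16 (filterByExpr, TMM, quasi-likelihood F test) compared the counts, with Benjamini-Hochberg adjustment over the 17349 genes kept and a threshold of 0.05. The biological coefficient of variation was 17.6% in common. CPM are TMM-scaled, SE were derived from F, and 95% intervals use the t distribution of the fit. FPKM served for levels between genes. DESeq2 1.42.0, limma 3.58.1, other filters and scalings, and leaving out each library were tried, and the scripts were tested on simulated counts. Same-numbered libraries of the groups correlated at -0.19, 0.11 and 0.07 in their deviations, so the numbers were not taken as pairs.

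The members and lists were chosen with earlier results of these data known. Named were the 10 members, CCNB1, up to 4 genes per list with the smallest p and at least 5 CPM in the higher group, overlapping genes and, per member of at least 5 CPM, the 3 genes with the most similar profile. Some items that this rule covers are not reported here. Lengths implied by the tables matched GENCODE release 29, with a tolerance of 0.5 bases, for 33601 of 34493 genes with a count, or 97.4%; UTRs came from its basic transcripts.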

Additional observations from a re-analysis of the deposited data

How the results depend on the processing

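With all 6 libraries, 4 genes passed in edgeR; 568 passed in DESeq2, 1077 without a filter on low counts, 162 with the replicate number as a block, and 1 or 2 in limma on log2(FPKM + 0.1) or log2(FPKM + 1). Leaving out each library in turn gave 1 to 2453 genes, the highest without knockdown library 2, and DESeq2 without it gave 2790. The switch genes past the threshold numbered 0, but 1 without the filter (VIM), 0 to 1 with a library left out (VIM without knockdown library 2) and 3 in DESeq2 without that library (VIM, FN1 and ZEB1, where 18.2% of all genes passed), a setting chosen after seeing the data. Of the list genes, 0 passed, but 10 in DESeq2, 17 without the filter, 4 with the replicate block, 0 to 37 with a library left out, and 42 in DESeq2 without knockdown library 2. The replicate block left the count of switch genes at 0. The log2 ratio of CDH2 to CDH1 differed by -0.24, with a prior count of 2 that is about as large as or larger than every count of CDH1. From FPKM with a pseudocount of 0.1 and 1 it differed by 0.0667 (exact permutation p = 0.4) and 0.102 (exact permutation p = 0.1). In FPKM CDH1 lay well below either pseudocount, so these 2 values follow mainly CDH2 and say little about the ratio. With a library left out the difference lay between -0.51 and 0.03.

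Of 715 log2 fold changes of 55 named genes over 13 settings, 628 kept direction and side of the threshold, 77 newly passed it (50 of them without knockdown library 2) and 10 turned in sign. With a library left out, ZEB2 ranged from -0.113 to 0.00303 (without mock library 2), KLF4 from -0.731 to 0.0491 (positive without knockdown library 1 or 3), CELF1 from -0.129 to 0.0243 and MBNL1 from -0.218 to 0.00586 (both positive without knockdown library 3), and JUP from -0.0807 (without knockdown library 2) to 0.332. ZEB2 was also positive in limma, at 0.00347 and 0.00196, and DESeq2 without knockdown library 2 gave CDH2 -0.00016 and JUP -0.103. The causes were not tested, and counts of 50 or fewer per library limit SNAI1, SNAI2 and ESRP1.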

Other observations

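Profiles most like those of 6 members with at least 5 CPM were named by Pearson's r of log2 CPM over the 6 libraries, each the highest of 11276 genes compared. The points share libraries, and knockdown library 2 separates them in most cases, so these values are descriptions. VIM was closest to KIAA1671 (r = 0.999), PER3, a circadian clock gene (r = 0.999), and PCDHGA3, a protocadherin gene (r = 0.999). PER3 was at 9.56, 23.2 and 10.4 CPM in knockdown libraries, against 22.2, 23.5 and 21.0 CPM in mock libraries. ZEB1 was closest to TENT5A, RBL2, a gene of the RB family, and AC079949.2 (r = 0.998 each). RBL2 was at 57.0, 77.7 and 53.5 CPM in knockdown libraries, against 69.6, 79.0 and 74.7 CPM in mock libraries. FN1 was closest to SLC24A1, FBN1, the gene of the matrix protein fibrillin 1, and CAPN5 (r = 0.995, 0.992 and 0.992). FBN1 was at 66.5, 122 and 84.5 CPM in knockdown libraries, against 115, 98.1 and 81.9 CPM in mock libraries, with library 2 highest as for FN1. ZEB2 was closest to GDI2, BEND7 and SMARCA1 (r = 0.999, 0.999 and 0.994), TWIST1 to ING1, TWSG1 and CEBPG (r = 0.992, 0.992 and 0.990), and CDH2 to ST6GAL1, PPL and MADD (r = 0.990, 0.989 and 0.986).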
